A study of Rattus norvegicus with 18 samples.

Results

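The neuronal intermediate filaments are the 5 genes Nefl, Nefm, Nefh, Ina and Prph, taken as every probe set that the platform annotation gives to one of these symbols. Each probe set combines several short probes of a transcript into 1 signal. The rule found 7 probe sets among 31099 on the array, and 5 genes among 14218 that had a probe set with 1 symbol. Nefl and Ina had 2 each, and the other members had 1 each. All 7 passed the filter on low values (a signal above the array's 40th percentile on at least 3 arrays), and the 5 genes were part of 10934 genes tested. The study took rat hippocampal neurons, grown for 10 days in dissociated culture, and measured their total RNA on 18 Affymetrix arrays. The MEF2 RNAi arm (called RNAi here) received lentiviral shRNAs against MEF2A and MEF2D, and the control arm received lentiviral control shRNAs, in each case on day 3. On day 10 the cells of both arms had AP5, an NMDA receptor blocker, and TTX, a sodium channel blocker, on them for 1 h. KCl at 55 mM, which depolarizes neurons, then followed for 0, 1 or 6 h, so that the 0 h arrays show silenced cells. Each of the 6 groups, RNAi and control at 0, 1 and 6 h, had 3 arrays that the labels call biological replicates. The labels do not say that the replicates were separate cultures, so p-values measure the spread between these samples. Dissociated cultures also hold glia. A gene was called at a limma p, adjusted by Benjamini-Hochberg over all genes tested, under 0.05. The comparisons ask which transcripts depend on MEF2 transcription factors, on depolarization, or on both.

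Neurofilaments are the intermediate filaments of axons, where they fill the cytoplasm and help to set the calibre of the axon. The light chain Nefl forms the core of the filament, the medium and heavy chains Nefm and Nefh add long tails that are heavily phosphorylated, and Ina (alpha-internexin) assembles with them in central neurons. Prph (peripherin) is a filament protein known mainly from peripheral neurons and from central neurons with peripheral axons.

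In this family the RNAi arm differed from the control arm in opposite directions from member to member. Averaged over the 3 times, Nefm fell to 48.6% and Ina to 73.0% of control. Prph was 1.73-fold higher and Nefh 1.24-fold higher. For 6 h of KCl limma called 2 of 5 members in the control arm, where 41.6% of all genes were called. In the RNAi arm it called 1 of 5, where 40% of all genes were called. Nefh fell after 6 h in both arms, and Nefl rose after 6 h in the control arm by its brighter probe set.

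Promoter sequences were on hand for 2 of the 5 members, Prph and Ina, which moved in opposite directions with RNAi. They are shown so that the stretch searched for the motifs of MEF2 and of activity-regulated factors can be read. Both come from RefSeq, assembly GRCr8, and run 5′ to 3′ over the 250 bases before the annotated start on the plus strand, at chr7:132097039-132097288 for Prph and chr1:255837879-255838128 for Ina. Capitals mark a TATAAA match.
Prph: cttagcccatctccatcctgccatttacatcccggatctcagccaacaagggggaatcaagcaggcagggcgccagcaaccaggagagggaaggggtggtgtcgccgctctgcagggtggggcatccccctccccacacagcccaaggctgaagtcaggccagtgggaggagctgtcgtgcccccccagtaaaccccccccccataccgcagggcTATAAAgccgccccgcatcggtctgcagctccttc
Ina: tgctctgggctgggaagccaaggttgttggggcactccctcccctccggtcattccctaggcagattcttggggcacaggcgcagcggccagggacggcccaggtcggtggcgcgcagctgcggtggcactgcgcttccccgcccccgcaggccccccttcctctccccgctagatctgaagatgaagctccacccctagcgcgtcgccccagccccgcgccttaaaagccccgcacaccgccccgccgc
The Prph window held 1 TATAAA on the strand shown, starting 35 bases before the start, and the Ina window held none, against 8.06% of 33469 rat promoter windows of this length. Neither window held the MEF2 motif (2.96% of windows), the CArG box of serum response factor (1.5%), the cAMP response element TGACGTCA (1.59%), its shorter form CGTCA (18.2%) or the AP-1 site TGANTCA (6.34%), searched on both strands. The short form lies within the longer one. GC content was 64.4% in the Prph window and 70.8% in the Ina window, against a median of 51.2% over all windows. These are descriptions of the letters in the windows. Nefl, Nefm and Nefh had no entry in the table. In the RefSeq gene table Nefl and Nefm lie next to each other on the same chromosome, with 0 genes and 1 pseudogene between them.

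Median signals ran from 240.03 to 248 per array, and within a group the arrays correlated at 0.993 to 0.998 over all probe sets on the log2 scale. Mef2a, a target of the shRNAs, had a log2 signal between 8.79 and 9.28 on RNAi arrays and between 10.58 and 11.19 on control arrays, which left 32.8%, 26.5% and 27.6% of control at 0, 1 and 6 h. Mef2d was at 69.5%, 74.7% and 67.5% of control by its brighter probe set, and Mef2c, which the shRNAs did not name, was called lower over the average of the times (log2 difference -0.29, adjusted p = 0.00697). Depolarization was visible in Fos, an immediate early transcription factor, which rose 19.9-fold at 1 h in the RNAi arm and 19.7-fold in the control arm. Of the markers that define neurons, Snap25 (signal 10109 to 12473) and Map2 (7001 to 10119) were the brightest. The others were dimmer, down to Syt1 at 221 to 321, and all 10 of the neuronal list passed the filter.

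**Figure D1:**
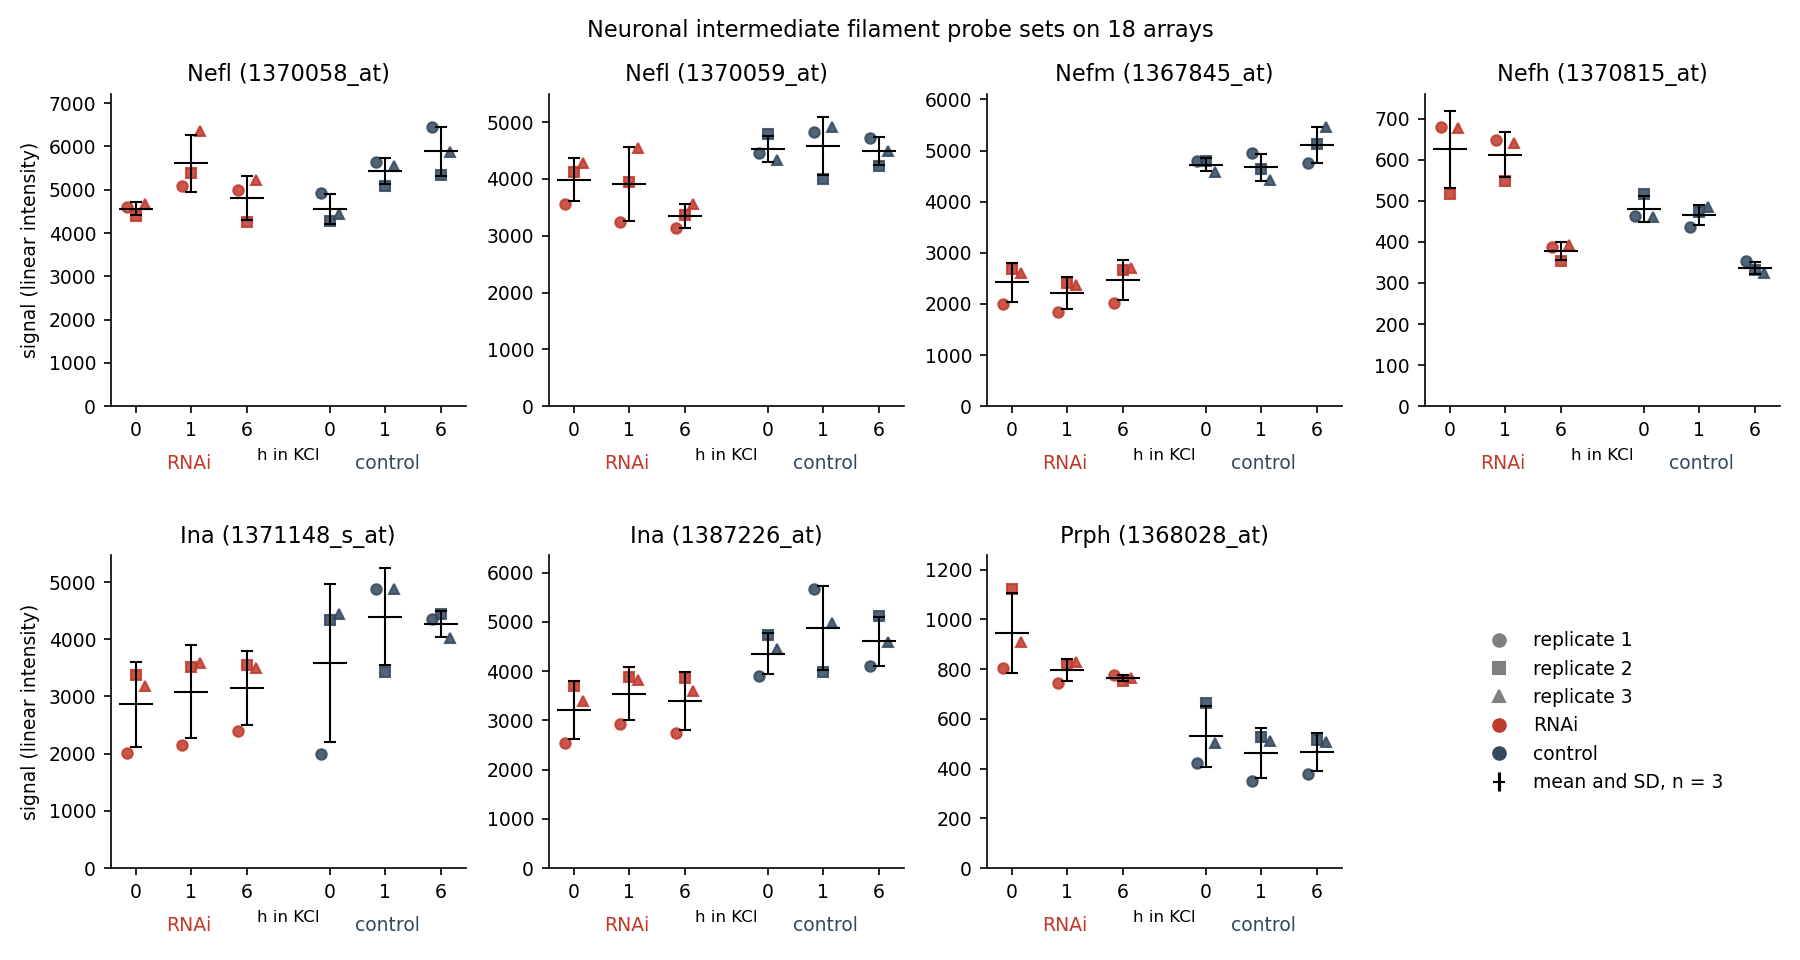
Signal of the 7 probe sets on each of 18 arrays, on a linear scale from 0, with RNAi arrays in red left of control arrays in dark blue and hours in KCl on the x axis. Symbols give the replicate number and black bars the mean and SD of 3 arrays. The Nefm arrays lie between 1844 and 2712 with RNAi and between 4431 and 5462 in control, while the brighter Nefl probe set overlaps between arms at 0 and 1 h.

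Nefm showed the largest difference of the family. In silenced neurons its signal was 1992, 2678 and 2599 in RNAi replicates 1, 2 and 3, against 4797, 4795 and 4574 in control. After 1 h of KCl it was 1844, 2419 and 2373 with RNAi and 4956, 4643 and 4431 in control, and after 6 h it was 2022, 2668 and 2712 with RNAi and 4759, 5125 and 5462 in control. Every RNAi array lay below every control array, and replicate 1 was the lowest of the RNAi arrays at each time. Nefm fell to 50.9%, 47.0% and 47.9% of control at 0, 1 and 6 h, which is -0.97, -1.09 and -1.06 as log2 difference (limma, n = 3 per group, SE 0.13; adjusted p = 0.000117, 4.48e-05 and 5.96e-05). Over the 3 times the difference was -1.04 (SE 0.07; adjusted p = 4.58e-08), and the adjusted p ranged from 2.34e-09 to 0.000183 over the alternatives tried. Arrays of the same number gave differences of -1.43 to -0.82, all 9 of them negative. Same-numbered arrays deviated together across the times, so these 9 differences come from 3 replicate numbers and are not independent. The averages over the times, for Nefm and for the other members, count them as separate, and their p-values can be too small. KCl left Nefm within the spread, with changes of -0.13 in the RNAi arm and -0.02 in the control arm at 1 h, and of 0.03 in the RNAi arm and 0.11 in the control arm at 6 h (adjusted p = 0.688, 0.989, 0.895 and 0.545). At 6 h the 95% interval was -0.25 to 0.30 with RNAi and -0.16 to 0.39 in control. Without all arrays of replicate 1, the change of 0.18 at 6 h in the control arm was called (adjusted p = 0.037, range 0.037 to 0.894), as was that of 0.22 from 1 h to 6 h (adjusted p = 0.0155). In such bulk samples fewer cells of a type and less RNA per cell cannot be told apart.

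Ina, the alpha-internexin partner of the neurofilament chains, was also lower with RNAi. Its brighter probe set read 2541, 3687 and 3389 in RNAi replicates 1, 2 and 3 at 0 h, against 3905, 4722 and 4441 in control. After 1 h it read 2922, 3880 and 3823 with RNAi and 5670, 3976 and 4968 in control, and at 6 h 2735, 3852 and 3590 with RNAi and 4102, 5114 and 4588 in control. The arms did not overlap at any of the times, although control replicate 2 at 1 h came within 100 signal units of the highest RNAi array. The log2 differences were -0.46, -0.46 and -0.45 at 0, 1 and 6 h (SE 0.17, n = 3 per group; adjusted p = 0.0835, 0.0781 and 0.0813), none of them called. With the replicate number as a block all 3 were called (adjusted p = 0.0234, 0.0217 and 0.0237). Their ranges over the alternatives were 0.0234 to 0.353, 0.0217 to 0.293 and 0.0237 to 0.327. Without control 1 h replicate 2 the difference at 1 h was -0.60 and called (adjusted p = 0.0394), and without all arrays of replicate 1 those at 0 and 6 h were called (adjusted p = 0.034 and 0.0356). Quantile normalization called the one at 0 h (adjusted p = 0.0491). The average over the times was called here and under all 30 alternatives, at -0.45 (SE 0.10; adjusted p = 0.00162, range 0.00022 to 0.0348).

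The other Ina probe set, of a design type that can match more than 1 transcript, was more scattered. It read 2019, 3383 and 3179 in RNAi replicates 1, 2 and 3 at 0 h, against 1999, 4335 and 4438 in control, so that replicate 1 was low in both arms at that time. At 1 h it read 2146, 3520 and 3584 with RNAi and 4881, 3424 and 4882 in control. At 6 h it read 2396, 3541 and 3496 with RNAi and 4357, 4433 and 4015 in control, the only time at which its arms did not overlap. Its average difference was -0.42 (95% interval -0.78 to -0.06; adjusted p = 0.0654 over all probe sets tested), close in size to that of the brighter set but not called. Same-numbered arrays differed by -0.96 to -0.04 on the brighter set, all 9 negative, and 7 of 9 were negative on the other. Neither KCl time moved Ina past the threshold, with 0.15 in the RNAi arm and 0.15 in the control arm at 1 h, and 0.08 in each arm at 6 h (adjusted p from 0.726 to 0.856).

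Nefl, the core chain, did not follow Nefm at 0 and 1 h on its brighter probe set, while its second set was called lower with RNAi over the average. Its brighter probe set read 4611, 4392 and 4672 in RNAi replicates 1, 2 and 3 at 0 h, against 4935, 4280 and 4441 in control. At 1 h it read 5098, 5393 and 6355 with RNAi and 5648, 5081 and 5552 in control, and at 6 h 4985, 4247 and 5214 with RNAi and 6449, 5332 and 5879 in control. The arms overlapped at 0 and 1 h and stood apart at 6 h, with RNAi lower. The differences at 0 and 1 h were 0.00 and 0.04 (SE 0.10; adjusted p = 0.987 and 0.821), with 95% intervals of -0.20 to 0.21 and -0.16 to 0.25. At 6 h the difference was -0.29 (SE 0.10; adjusted p = 0.05004), just outside the threshold of 0.05, and with the replicate block it was called (adjusted p = 0.00919, range over the alternatives 0.00919 to 0.21). It was also called without control 6 h replicate 2 (adjusted p = 0.0377), RNAi 6 h replicate 3 (0.0429), RNAi 1 h replicate 1 (0.0458), RNAi 1 h replicate 3 (0.0357) or control 0 h replicate 1 (0.0454), and under quantile normalization (0.0373), the mean of the Nefl probe sets (0.0161), a mean-variance trend (0.0397) or an added offset in place of the floor (0.0477).

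The second Nefl probe set gave 3563, 4117 and 4281 in RNAi replicates 1, 2 and 3 at 0 h, against 4452, 4792 and 4342 in control. After 1 h of KCl it gave 3250, 3951 and 4545 with RNAi and 4825, 3992 and 4914 in control, and at 6 h 3142, 3357 and 3554 with RNAi and 4727, 4232 and 4495 in control. All 9 same-numbered differences were negative on this set, from -0.59 to -0.02, against 5 of 9 on the brighter set. At 6 h it was lower with RNAi by -0.42 (adjusted p = 0.0189 over all probe sets tested) and over the average by -0.28 (adjusted p = 0.00309). The average of the brighter set was -0.08 (SE 0.06; adjusted p = 0.283), so the sets differ in whether an overall difference was called. With the mean of the Nefl probe sets in place of the brighter one, the average was -0.18 and called (adjusted p = 0.0147, range 0.0147 to 0.844).

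Prph, the peripherin gene, was higher with RNAi at every time. At 0 h it read 806, 1123 and 908 in RNAi replicates 1, 2 and 3, against 424, 664 and 502 in control. After 1 h of KCl it read 744, 816 and 829 with RNAi and 349, 528 and 513 in control, and at 6 h 775, 751 and 764 with RNAi and 377, 516 and 508 in control. The lowest RNAi array, at 744, lay above the highest control array, at 664, and replicate 1 was the lowest control array at each time. Prph rose 1.80-fold, 1.75-fold and 1.65-fold at 0, 1 and 6 h, log2 differences of 0.85, 0.81 and 0.72 (SE 0.18, n = 3 per group; adjusted p = 0.00439, 0.00537 and 0.011). The average was 0.79 (SE 0.10; adjusted p = 2e-05, range 1.16e-07 to 0.00388), and all 9 same-numbered differences were positive, from 0.54 to 1.09. Without control 6 h replicate 1 the 6 h difference was 0.58 (adjusted p = 0.0509). Without all arrays of replicate 3 the differences of 0.84, 0.86 and 0.79 were not called (adjusted p = 0.111, 0.0822 and 0.124). KCl gave Prph -0.24 in the RNAi arm and -0.19 in the control arm at 1 h, and -0.30 in the RNAi arm and -0.17 in the control arm at 6 h, none of them called. With the replicate block the change of -0.30 was called (adjusted p = 0.0417, range 0.0229 to 0.637), as it was without all arrays of replicate 1 (-0.41).

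Since Prph is best known from peripheral neurons, markers of such neurons were examined. Of 6 listed, 4 were on the array, and Isl1 (signal 126 to 166), Calca (82.3 to 108) and Trpv1 (117 to 168) did not pass the filter on low values. Scn10a, a sodium channel of pain-sensing neurons, passed at 178 to 216. The summed signal of these markers was 534 to 591 in RNAi and 588 to 597 in control arrays at 0 h, 549 to 638 in RNAi and 532 to 624 in control at 1 h, and 589 to 603 in RNAi and 574 to 619 in control at 6 h. The arms overlapped at each time, and Scn10a was at -0.03 over the average (adjusted p = 0.532). Most of this sum comes from markers that failed the filter on low values, so its overlap carries little information. The source of the higher Prph signal was not tested.

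Nefh, the heavy chain with the longest tail, answered both to RNAi and to KCl. At 0 h it read 680, 517 and 678 in RNAi replicates 1, 2 and 3, against 462, 516 and 462 in control. After 1 h of depolarization it read 648, 549 and 640 with RNAi and 437, 473 and 486 in control, and at 6 h 388, 353 and 393 with RNAi and 353, 332 and 324 in control. RNAi lay above control at 0 and 1 h, with RNAi replicate 2 barely so at 0 h, and the arms touched at 6 h. The RNAi differences were 0.37, 0.39 and 0.17 (SE 0.10, n = 3 per group; adjusted p = 0.0183, 0.0115 and 0.286). The average was 0.31 (SE 0.06; adjusted p = 0.000458, range 3.12e-05 to 0.0375), and all 9 same-numbered differences were positive, from 0.004 to 0.57.

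The Nefh calls at single times were lost in several fits with fewer arrays. In the fits without 1 array that lost the call, the difference was 0.31 to 0.35 at 0 h and 0.35 at 1 h. At 0 h the adjusted p was 0.0552 without control replicate 1, 0.0654 without control replicate 3, 0.0723 without RNAi replicate 1 and 0.0864 without RNAi replicate 3. At 1 h it was 0.0527 without control replicate 1 and 0.0554 without RNAi replicate 1. Leaving out all arrays of replicate 1 gave 0.143 at 0 h and 0.139 at 1 h, and leaving out replicate 3 gave 0.32 and 0.122. Fitted on the groups compared alone, Nefh at 0 h had the same difference of 0.37 and an adjusted p of 0.101 (range 0.00154 to 0.32).

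After 6 h of KCl, Nefh fell in both arms, to 60.9% of its 0 h signal with RNAi and 70.2% in control. The log2 changes were -0.71 in the RNAi arm and -0.51 in the control arm (SE 0.10; adjusted p = 3e-05 and 0.000568), with ranges of 3.91e-06 to 0.00594 and 7.58e-05 to 0.0199 over the alternatives. At the 1 h point it had not moved past the threshold, with -0.02 in the RNAi arm and -0.04 in the control arm (adjusted p = 0.941 and 0.945). From 1 h to 6 h it fell by 0.69 in the RNAi arm and by 0.47 in the control arm on the log2 scale (adjusted p = 6.86e-05 and 0.00154), and the change in the control arm was not called without all arrays of replicate 3 (adjusted p = 0.0607). The difference between the arms in the 6 h response was -0.20 (SE 0.14; adjusted p = 0.78), with a 95% interval of -0.50 to 0.09.

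**Figure D2:**
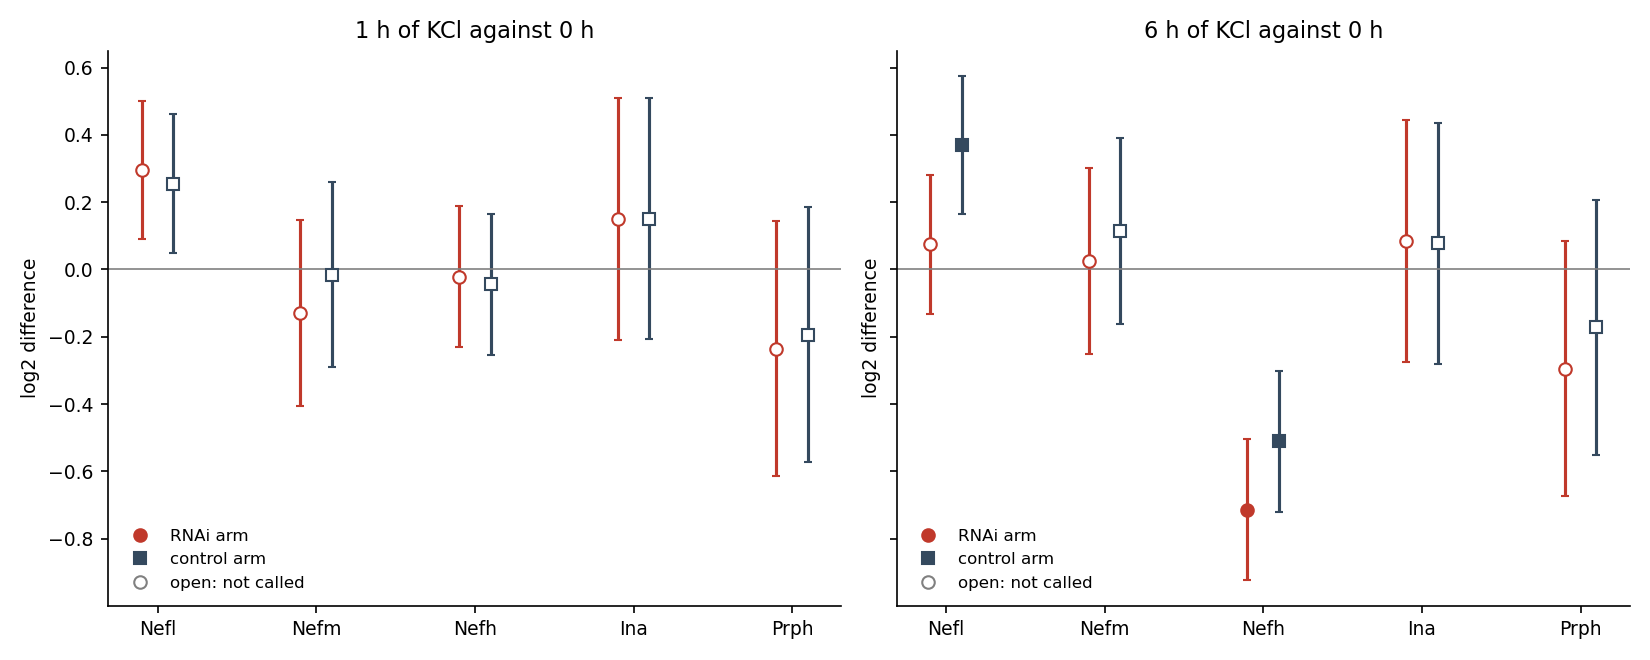
Log2 difference of each member between 1 h (left) or 6 h (right) of KCl and 0 h, in the RNAi arm (red circles) and the control arm (dark blue squares). Bars are 95% intervals of the limma fit with n = 3 arrays per group, and open symbols were not called. Nefh at 6 h lies below 0 in both arms, at -0.71 with RNAi and -0.51 in control, and Nefl at 6 h is filled in the control arm alone.

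Nefl was the other member that KCl moved. By the brighter probe set it rose 1.29-fold after 6 h in the control arm (log2 0.37, SE 0.10; adjusted p = 0.00582, range 0.000718 to 0.146), and all 6 h arrays lay above all 0 h arrays. The second probe set was flat in the same arrays, at -0.01 (95% interval -0.26 to 0.23), and with the mean of the sets the change of 0.18 was not called (adjusted p = 0.146). Without all arrays of replicate 3 the brighter set's 0.35 was not called either (adjusted p = 0.0588). In the RNAi arm the 6 h change was 0.07 on the brighter set and -0.25 on the other (adjusted p = 0.581 and 0.0982). The difference between the arms was -0.30 on the brighter set (SE 0.14; unadjusted p = 0.0473 in the limma fit, adjusted p = 0.6) and -0.23 on the other (adjusted p = 0.773), so a difference in response was not shown. At 1 h Nefl was at 0.29 in the RNAi arm and 0.25 in the control arm, not called (adjusted p = 0.119 and 0.254). With the replicate block the first of these was called (adjusted p = 0.0242, range 0.0242 to 0.721), as was the change of -0.22 from 1 h to 6 h in the RNAi arm (adjusted p = 0.028), which quantile normalization also called (-0.26, adjusted p = 0.0442).

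**Figure D3:**
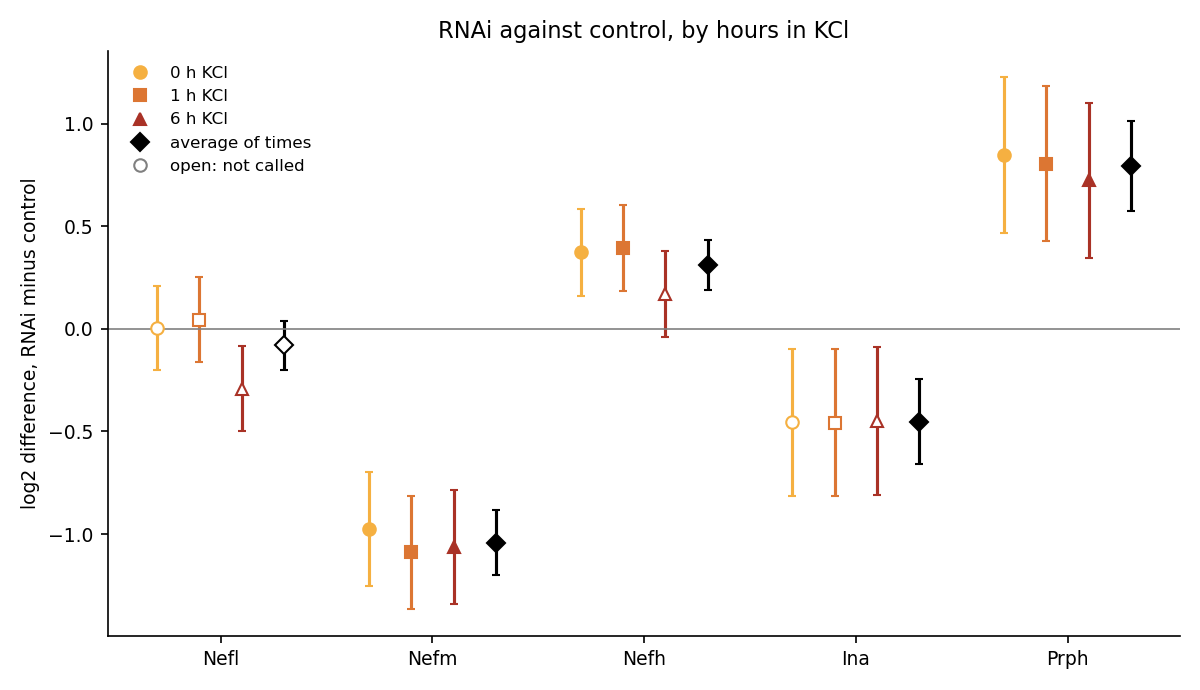
Log2 difference of RNAi minus control for each member at 0, 1 and 6 h of KCl and averaged over the times. Bars are 95% intervals of the limma fit with n = 3 arrays per group and time, and open symbols were not called. Nefm lies near -1 at each time and Prph between 0.72 and 0.85, with Ina below 0 and Nefh above it.

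The family has only 5 genes, and its counts are given beside the share of all genes called. At an adjusted p under 0.05, 3 of 5 members were called for RNAi against control at 0 h (Nefm lower, Nefh and Prph higher), where 14.9% of all genes were called. At 1 h the same 3 were called, against 17.1% of genes, and at 6 h Nefm and Prph were called, against 17.2%. Over the average of the times 4 of 5 were called, 2 higher and 2 lower, against 37.6% of all genes, 20.9% higher and 16.6% lower. For 6 h of KCl 2 of 5 were called in the control arm (41.6% of genes, 16.1% higher and 25.5% lower), and 1 of 5 in the RNAi arm (40% of genes). Between 1 h and 6 h, 1 of 5 was called in each arm, against 31.3% of genes in the RNAi arm and 35.5% in the control arm. At 1 h of KCl limma called 0 of 5 in either arm, against 3.88% of genes in the RNAi arm and 2.7% in the control arm, with 1 member at an unadjusted p under 0.05 in each. The median difference of the members over the average of the times was -0.08, and that of all genes was 0.01.

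The interaction asks whether KCl acted differently in the RNAi arm, as the response of that arm minus that of control. None of the 5 members was called at 1 h (0 at an unadjusted p under 0.05) or at 6 h (1, Nefl), where limma called 0% and 0.119% of all genes. For Nefm, whose RNAi difference was the largest, the interaction was -0.11 at 1 h and -0.09 at 6 h (SE 0.18), with 95% intervals of -0.51 to 0.28 and -0.48 to 0.30. For Prph it was -0.04 and -0.12 (SE 0.25), and for Ina 0.00 and 0.01 (SE 0.24). A p that misses the threshold leaves the size of any difference in response to these intervals.

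Whether members differed from each other was tested on the log2 ratio of their signals within each array, which shows unequal change and no level. The arm labels were permuted exactly within each KCl time, 8000 relabellings, two-sided, for 10 pairs of members. The RNAi difference of Nefm minus that of Nefl was -0.96 on the log2 scale (exact permutation p = 0.00025, the smallest that these relabellings can give; adjusted p = 0.000357 over the 10 pairs). For Nefm minus Ina it was -0.59, with the same p. The difference between Prph and Nefm effects was the widest of the 10 (-1.83 for Nefm minus Prph, same p), and Prph rose more than Nefh (-0.48 for Nefh minus Prph, exact permutation p = 0.00075, adjusted p = 0.000833). The highest p of the 10 was that of Ina minus Nefl, at -0.37 (exact permutation p = 0.012, adjusted p = 0.012). This test takes the brighter probe set of Nefl, at -0.08 over the average, and does not use the replicate numbers. The second Nefl set, at -0.28, lay closer to Ina at -0.45, and its ratios were not tested. Relabelling each time on its own treats the times as independent, although same-numbered arrays deviated together across them, so its p-values can be too small.

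**Figure D4:**
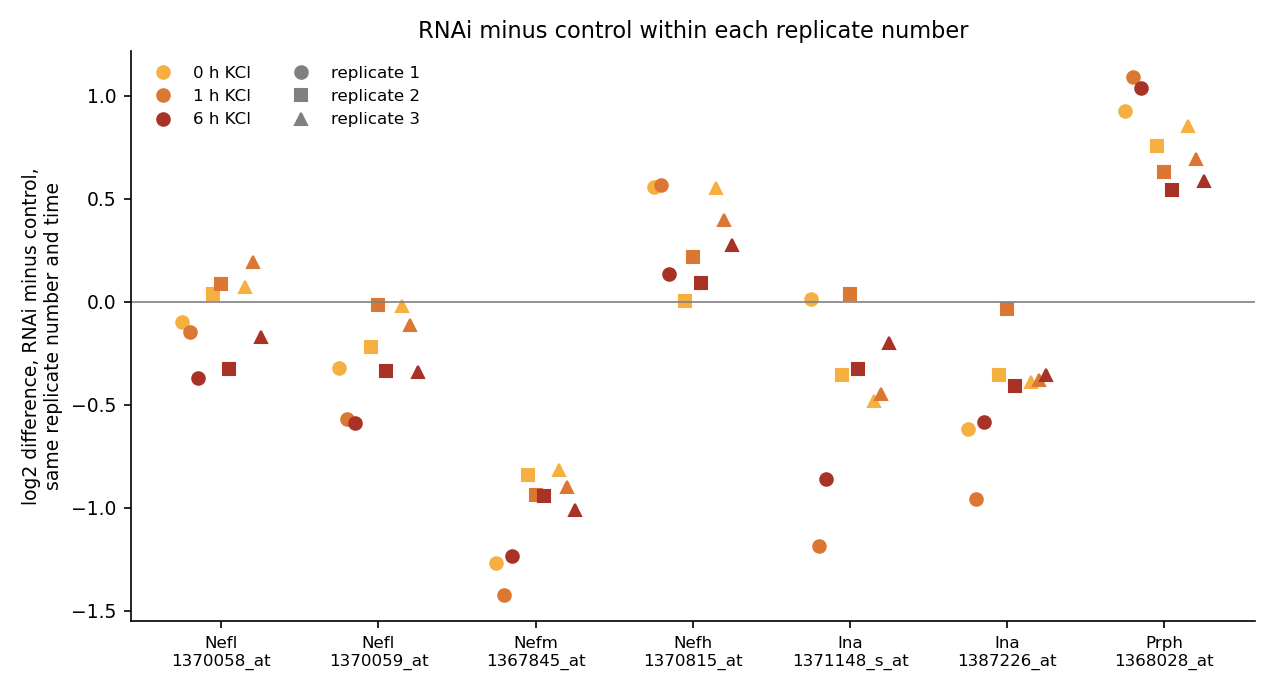
RNAi minus control on the log2 scale for arrays of the same replicate number and time, 9 differences for each of 7 probe sets. Colours give the hours in KCl and symbols the replicate number. All 9 lie below 0 for Nefm, for the brighter Ina set and for the second Nefl set, and all 9 lie above 0 for Nefh and Prph.

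The order of the group means followed the arms for Nefm, Prph, both Ina probe sets and the second Nefl set. For Nefh it followed the arms at 0 and 1 h with both 6 h groups last. Nefm averaged 2467 ± 386, 2423 ± 375 and 2212 ± 320 with RNAi at 6, 0 and 1 h, below 5115 ± 351, 4722 ± 129 and 4677 ± 264 in control at 6, 0 and 1 h (signal, SD, n = 3 arrays each). Neighbours in that order overlapped within each arm and were separate between arms. Prph averaged 946 ± 162, 796 ± 45.7 and 763 ± 12.4 with RNAi at 0, 1 and 6 h, above 530 ± 123, 467 ± 77.9 and 463 ± 99.3 in control at 0, 6 and 1 h, again separate only between arms. Nefh formed 3 steps, with RNAi at 0 and 1 h (625 ± 93.3 and 612 ± 54.7) above control at 0 and 1 h (480 ± 31.0 and 465 ± 25.0). The 6 h groups came last, at 378 ± 21.8 with RNAi and 337 ± 15.1 in control, and overlapped each other. For either Nefl probe set and for the second Ina set the neighbours in the order overlapped throughout. Ina by its brighter set was separate only between the lowest control group, 4356 ± 415 at 0 h, and the highest RNAi group, 3542 ± 537 at 1 h.

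The genes whose log2 signal tracked each member most closely over the 18 arrays were listed by Pearson correlation, as a description, since arrays of 1 arm or replicate number share much of their variation. Nefm was closest to Edil3 (r = 0.991), an extracellular matrix protein gene that was lower with RNAi by -1.39 on average, then to Kgd4 (0.974) and Rtn3 (0.968), a reticulon of the endoplasmic reticulum. Prph was closest to Camsap1 (0.953), which binds microtubule minus ends, Zfr2 (0.950) and Gpsm1 (0.934), a regulator of G protein signalling. Nefh was closest to Wdr46, Scly and Rbks (0.955, 0.955 and 0.947). Ina was closest to Eif4g3 (0.914), a translation initiation factor, Gabra2 (0.904), a GABA receptor subunit, and Cdkn2d (0.895). Nefl had the loosest companions, Armcx5, Rmdn3 and Ifrd1 (0.855, 0.806 and 0.803). Among members, Nefm ran with Ina (r = 0.847) and against Prph (-0.806), while Nefl and Nefm were at 0.214.

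Genes of the same machinery were set beside the members for the average RNAi difference, for which 37.6% of all genes were called, 20.9% higher and 16.6% lower. The counts by list are a description beside these shares. Among 8 other intermediate filament genes tested, 4 were called, each higher with RNAi, and the list's median was 0.17 beside 0.01 for all genes. They were Lmna, a nuclear lamin, at 0.30, Nes (nestin), a filament of progenitors and glia, at 0.25, the astrocyte filament Gfap at 0.19 and Vim (vimentin) at 0.16. Motors and linkers had 1 of 12 higher and 4 lower. The kinesin heavy chain Kif5a, which carries neurofilaments along axons, was at -0.43 (SE 0.07; adjusted p = 0.000324), Kif5c at -0.40, Kif5b at -0.23 and the dynein chain Dync1i1 at -0.16, while the cytolinker Plec (plectin) was at 0.30. Of 10 kinases and phosphatases tested, Cdk5, which phosphorylates neurofilament tails, was higher at 0.26 and the phosphatase subunit Ppp1ca lower at -0.32.

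Of 10 genes of neurofilament turnover and mRNA binding, 2 were higher and 2 lower over the average of the times, with Sod1 at 0.19 and Elavl4, a neuronal RNA-binding protein, at -0.36. The microtubule list had 1 of 15 higher, Map1a at 0.20, and 4 lower, such as Map2 at -0.17. Spectrins and ankyrins had 3 of 8 lower, Sptbn4 at -0.24, Sptan1 at -0.20 and Sptbn1 at -0.13. Of 8 axon growth and injury genes, 3 were lower. Basp1, a growth cone protein, was at -0.67 (SE 0.07; adjusted p = 1.11e-06) and the neuropeptide Npy at -0.79 (SE 0.14; adjusted p = 0.000271).

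For 6 h of KCl in the control arm the same lists are read against 41.6% of all genes called, 16.1% higher and 25.5% lower. Lmna, Gfap, Vim, Sptbn1 and Tubb3 were called here as well as for RNAi, in comparisons that share the control arrays at 0 and 6 h. Other intermediate filaments had 2 of 8 higher and 2 lower, Lmna at 0.55 against Lmnb2 at -0.35 and Gfap at -0.27. Gsk3b and Csnk1a1, kinases known to act on neurofilaments, rose by 0.87 and 0.36 on the log2 scale (2 of 10 higher). Tardbp, which encodes the RNA-binding protein TDP-43, rose 1.61-fold, while Capn2, a calcium-activated protease, and Cast, its inhibitor, were at -0.39 and -0.53 (1 of 10 higher, 3 lower). Dst, a linker of filaments to other cytoskeleton, was the 1 of 12 motors and linkers called, at 0.32. Tubb3 and Tubb4a, tubulin genes, were at -0.37 and -0.36 (2 of 15 lower). Of spectrin and ankyrin genes 3 of 8 were higher and 1 lower, with Ank2 at 0.19, Sptbn1 at 0.18 and the adducin Add3 at -0.38. Of 8 axon growth and injury genes 3 rose, Atf3 5.67-fold, Sprr1a 2.04-fold and Jun 1.33-fold. List medians lay between -0.11 and 0.12, where that of all genes was -0.02.

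**Figure D5:**
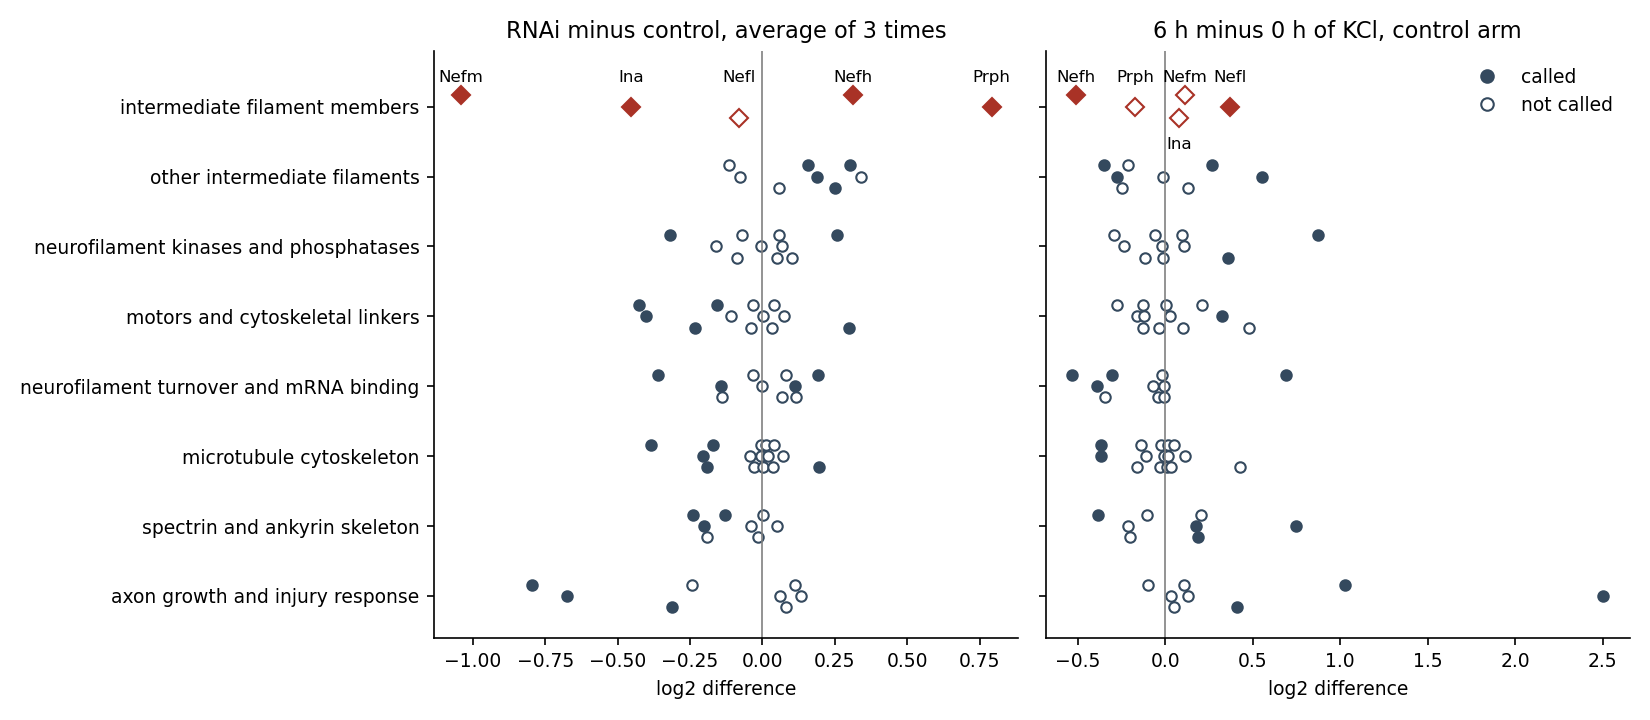
Log2 differences of the 5 members (red diamonds) and of the tested genes of 7 related lists (blue circles), for RNAi minus control averaged over 3 times (left) and for 6 h minus 0 h of KCl in the control arm (right). The panels share the control arrays at 0 and 6 h. Filled symbols were called, and Nefm at -1.04 and Prph at 0.79 are at the ends of the left panel.

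Markers of the cell types that the culture could hold were read over the same average, against 37.6% of all genes called. Of 10 neuronal markers 1 was higher, Snap25 at 0.15. Slc17a7 at -0.60, Camk2a at -0.35, Tubb3 at -0.19 and Map2 at -0.17 were the 4 lower. The summed neuronal signal overlapped between arms at each time, for example 38045 to 43755 with RNAi and 39797 to 44955 in control at 0 h. Bright markers such as Snap25 carry most of this sum, and Slc17a7 (726 to 1780) and Camk2a (774 to 1316) carry little of it. Of 6 astrocyte markers 3 were called, each higher, S100b at 0.43, Aldoc at 0.30 and Gfap at 0.19. Aqp4 at 0.33, Slc1a3 at 0.10 and Aldh1l1 at -0.22 were not called. The astrocyte sums overlapped between arms at each time. At 0 h they were 37200 to 44371 with RNAi and 31300 to 40564 in control. At 1 h they were 37446 to 44251 with RNAi and 30330 to 38420 in control, and at 6 h 35570 to 42075 with RNAi and 30349 to 35922 in control. Endothelial and fibroblast markers had 1 of 4 tested lower, Dcn at -0.86, while Col1a1, Col1a2 and Col3a1 were at -0.01, -0.06 and -0.33 and not called (adjusted p = 0.945, 0.86 and 0.285). Dcn was the brightest of them (814 to 2473), and the sums of the list did not overlap, at 1800 to 2011 with RNAi and 2831 to 3243 in control at 0 h, 1613 to 2027 with RNAi and 2749 to 3681 in control at 1 h, and 2148 to 2660 with RNAi and 3038 to 3265 in control at 6 h. Pecam1, which defines endothelial cells, lay under the floor of 72.6 on all arrays (43.4 to 51.5). Limma called 0 of 3 oligodendrocyte, 0 of 4 microglia and 0 of 5 progenitor markers over the average (1, 0 and 0 at an unadjusted p under 0.05). Of 2 Schwann cell markers tested 1 was lower, Egr2, which is also an immediate early gene of neurons, and at 1 h the Schwann cell sums were 1494 to 1795 with RNAi and 3003 to 3499 in control. The part of these cell types in the differences of Nefm, Ina, Nefh and Prph was not tested.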

How the data were processed

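Total RNA of 18 samples was labelled with biotin and read on Affymetrix arrays, per the labels. The authors deposited 1 linear intensity per probe set and array. For probe summary and array scaling, no method is given in the sources used here. With 3 arrays a group, array number limits precision. Intensities under the 20th percentile of the table, 72.6, were raised to it before log2. Each gene was its brightest probe set with 1 symbol, 20832 of 31099 probe sets having 1 and 436 several. Tested genes exceeded the array's 40th percentile on at least 3 arrays. Differences were fitted with limma 3.58.1 in R 4.3.3 (lmFit, eBayes; 12 residual degrees of freedom, two-sided) on all 18 arrays, with Benjamini-Hochberg adjustment over all genes, and called at an adjusted p under 0.05. Other probe sets were fitted over all 19567 probe sets that passed the filter. The fit was tested on simulated data with changes in the control arm at 6 h and independent noise on each array. That test covered neither the RNAi comparisons nor deviation shared between arrays of the same replicate number.

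Replicate numbers come from the sample titles. Same-numbered arrays deviated together in 45 of 45 group pairings (correlations 0.17 to 0.74), so a fit with the number as a block was run beside the fit without it. The block takes out deviation shared by both arms. Neither fit models deviation that same-numbered arrays of 1 arm share across the times. Members, gene lists and tests were chosen with earlier results of these data known. Named genes are the members, the knockdown and depolarization checks, the smallest adjusted p values of each list (at most 3 for 6 h of KCl, at most 2 for RNAi) and the 3 closest genes by correlation. Further genes called within a list, and marker genes, were named after their values were seen. Alternatives covered the floor, normalization, filter, probe sets, samples in the fit, block, variance trend and arrays left out. Leaving out all arrays of 1 number was added after the data were seen.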

Additional observations from a re-analysis of the deposited data

How the results depend on the processing

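Across 60 member results and 30 alternatives each, no called value changed sign, and 43 results kept their call throughout. Of 5 members, the mean of probe sets left 1 called for 6 h of KCl in the control arm in place of 2. With this mean, limma also called Nefl for RNAi against control at 6 h (-0.36, adjusted p = 0.0161). Nefl was likewise called over the average of the times (-0.18, limma adjusted p = 0.0147), beside the 4 members called otherwise. The replicate block called 1 in place of 0 for 1 h in the RNAi arm, 2 in place of 1 for 6 h against 0 h and for 6 h against 1 h there, and for RNAi against control 4 in place of 3 at 0 h, 4 in place of 3 at 1 h and 4 in place of 2 at 6 h. It changed no other member call and ended none. Of 10934 genes the block called 904 for 1 h in the RNAi arm. There it called 5436 for 6 h against 0 h (4379 otherwise) and 4580 for 6 h against 1 h (3423 otherwise). For RNAi against control it called 2847, 3073 and 3084 genes at 0, 1 and 6 h. Quantile normalization called 2 in place of 1 for 6 h against 1 h in the RNAi arm, 4 in place of 3 for RNAi against control at 0 h (Ina) and 3 in place of 2 at 6 h (Nefl). No count over all genes is given beside these, so they are a description. With arrays left out, singly or by replicate number, the count ran from 1 to 3 for 6 h of KCl in control, 0 to 2 for 6 h against 1 h in control, 1 to 2 for 6 h in the RNAi arm, and 1 to 3, 1 to 4 and 1 to 3 for RNAi against control at 0, 1 and 6 h. Such fits hold fewer arrays. For the average over times the count with arrays left out stayed at 4.

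Over all genes the block raised the calls from 295 to 601 and from 424 to 904 for 1 h of KCl in control and RNAi, and for RNAi against control from 1624 to 2847 at 0 h, 1869 to 3073 at 1 h and 1883 to 3084 at 6 h. It called 126 interactions at 6 h in place of 13. Counts were lowest without all arrays of replicate 2, at 59, 61, 413, 608, 509 and 0 in this order, 2705 and 2500 for 6 h of KCl in control and RNAi (4546 and 4379 otherwise), 2123 and 1648 for 6 h against 1 h (3878 and 3423), and 2440 for the average (4108). Testing every probe set gave 7348 and 7127 for 6 h of KCl, 6221 and 5320 for 6 h against 1 h and 6622 for the average. The cause of these shifts was not tested. The number of arrays limits the precision.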
